A study of Mus musculus with 9 samples.

Results

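Expression was followed for 9 genes of fatty acid activation and carnitine-dependent fatty acid transport, taken from a table of 55471 genes by their symbols: the long-chain acyl-CoA synthetases *Acsl1*, *Acsl3*, *Acsl4*, *Acsl5* and *Acsl6*, and the carnitine acyltransferases *Cpt1a*, *Cpt2*, *Crat* and *Crot*. All 9 genes had a row in the table, and 8 of them (all but *Acsl6*) had enough counts to be tested. The cells were dendritic cells (DCs) grown from the bone marrow of wild-type female C57BL/6 mice, 8 to 20 weeks old, in medium with GM-CSF (20 ng/mL), the growth factor that all groups shared; such cultures are known to hold macrophage-like cells beside DCs. They were left unstimulated, stimulated with LPS (100 ng/mL), the bacterial cell wall component sensed by TLR4, or treated with IFN-β (1000 U/mL), a type I interferon, in each case for 6 h. Each condition had 3 RNA sequencing libraries, labelled A, B and C. Nothing in the sources says whether the letters stand for separate mice or cultures, so that p-values measure the spread between these libraries, which may be technical.

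Fatty acids entering a cell are first joined to coenzyme A by acyl-CoA synthetases, and the acyl-CoA can then be built into phospholipids and triglycerides or be burned. The ACSL isoforms differ in the acyl chains they prefer and in the membranes they sit on. For oxidation, CPT1 on the outer mitochondrial membrane moves the long acyl chain from coenzyme A to carnitine, a carrier takes the acylcarnitine across the inner membrane, and CPT2 moves the chain back to coenzyme A for β-oxidation. CRAT does the same exchange for acetyl and other short acyl groups, and CROT for the medium-chain products of peroxisomal β-oxidation. In DCs and macrophages, TLR ligands are known to raise glycolysis and the making of lipid, while quiescent cells rely more on oxidation.

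The libraries held 33425803 to 43735199 counts each. Values are CPM, a gene's counts relative to the total of its library, scaled by TMM factors, which are set so that most genes do not change between libraries; the factors were 1.18 to 1.26 in unstimulated, 0.783 to 0.841 in LPS and 0.977 to 1.02 in IFN-β libraries. With scaling by library size only, the median log2 fold change of all tested genes shifted by -0.58 for LPS against unstimulated, -0.31 for IFN-β against unstimulated and 0.27 for IFN-β against LPS. All 10 DC and macrophage markers on the list were detected in every library, with a summed level of 6103 to 7233 CPM in unstimulated, 7541 to 8556 CPM in LPS and 6780 to 7135 CPM in IFN-β libraries. Single markers on that list, named after their values were seen, moved apart: the LPS libraries stood at 546.5 to 589 CPM of *Csf1r*, 372 to 449 of *Mertk* and 305 to 453 of *Adgre1*, all 3 macrophage genes, beside 1026 to 1198, 110 to 134 and 121 to 212 CPM in unstimulated libraries. Also higher with LPS were *Itgax* (1508 to 1673 beside 1361 to 1396 CPM) and *Cd74* (3321 to 3919 beside 2295 to 2923). So were *Csf2ra* (335 to 374 beside 301 to 312 CPM) and *Zbtb46* (47.24 to 57.45 beside 27.77 to 36.78). *Itgam*, *H2-Ab1* and *Flt3* overlapped between LPS and unstimulated libraries. These marker values rest on the TMM factors. With scaling by library size only, *Itgax*, *Csf2ra*, *Itgam* and the summed level were lower in every LPS library than in every unstimulated library. *Cd74* and *Zbtb46* then overlapped, while *Csf1r* stayed lower and *Mertk* and *Adgre1* higher with LPS. *Mertk* was higher with IFN-β too, at 252 to 292 CPM. The part of these markers in the results was not tested. Summed T cell, B cell, NK cell and erythroid markers stayed at or below 0.389 CPM in every library (*Hbb-bs* was at 0 throughout), and fibroblast markers between 2.25 and 7.86 CPM. Neutrophil markers summed to 9.61 to 25.6 CPM, and mast cell, basophil and eosinophil markers to 2.78 to 16.1 CPM, with ranges that overlapped between all conditions. The stimuli left their marks on the marker genes: *Il12b* stood at 3459 to 3822 CPM with LPS and at most at 4.92 CPM in the other libraries, and *Ifit1*, an interferon-induced gene, at 11.2 to 40.7 CPM unstimulated, 1962 to 2767 CPM with LPS and 727.0 to 894.4 CPM with IFN-β. In bulk RNA, fewer cells of a type and less RNA per cell cannot be told apart.

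The start regions of 2 genes are shown as a description, and no result rests on them. The genes are *Acsl1*, which had the largest rise of the 9 genes under both stimuli, and *Cpt1a*, the entry enzyme of the carnitine shuttle. RefSeq (GRCm38.p6) gave 11 promoter windows for 8 of the 9 genes, *Crat* not being among them. *Acsl1* has 2 windows, the first at chr8:46470787-46471036 on the plus strand with a GC content of 72% and the second at chr8:46490716-46490965 on the plus strand with 48.4%. The *Cpt1a* window lies at chr19:3323051-3323300 on the plus strand with a GC content of 59.6%. Each holds the 250 bases before the annotated start, and capitals mark a match to the nuclear receptor half-site AGGTCA, read on the minus strand.
Acsl1 first start: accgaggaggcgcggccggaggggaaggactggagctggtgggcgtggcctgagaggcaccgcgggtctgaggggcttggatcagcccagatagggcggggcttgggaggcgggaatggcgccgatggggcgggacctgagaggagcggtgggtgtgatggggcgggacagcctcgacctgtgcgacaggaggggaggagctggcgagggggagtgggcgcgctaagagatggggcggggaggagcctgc
Acsl1 second start: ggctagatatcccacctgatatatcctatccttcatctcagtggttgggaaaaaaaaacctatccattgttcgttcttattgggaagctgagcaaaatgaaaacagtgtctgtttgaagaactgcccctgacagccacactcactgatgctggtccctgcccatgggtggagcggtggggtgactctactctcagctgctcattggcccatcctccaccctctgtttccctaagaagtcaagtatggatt
Cpt1a: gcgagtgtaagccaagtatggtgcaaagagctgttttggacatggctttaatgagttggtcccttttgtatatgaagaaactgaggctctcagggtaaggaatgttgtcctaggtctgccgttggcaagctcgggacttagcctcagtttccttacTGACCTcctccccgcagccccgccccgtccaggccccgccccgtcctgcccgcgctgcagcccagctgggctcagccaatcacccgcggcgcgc
The counts were summed over the whole gene, so they do not tell which *Acsl1* start was in use. Searched on both strands, none of the 11 windows held GAAANNGAA, the core of the interferon-stimulated response element, or GGGANNTTC, a κB-like motif; 7.13% and 3.23% of 32851 RefSeq promoter windows of the same length did. The half-site AGGTCA was in the *Cpt1a* window, starting 94 bases before the start, and in 1 of the 3 *Acsl6* windows, and in 14% of all windows. A match is a description of the letters and says nothing about the binding of a factor.

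LPS changed 6 of the 8 tested genes, with *Acsl1*, *Acsl4* and *Acsl5* higher and *Acsl3*, *Crat* and *Crot* lower (quasi-likelihood F-test of edgeR, Benjamini-Hochberg adjusted over 16260 genes, threshold 0.05). IFN-β changed 5, with *Acsl1*, *Acsl4* and *Cpt1a* higher and *Acsl3* and *Crat* lower. The rise of *Acsl5* with LPS and that of *Cpt1a* with IFN-β were not seen with scaling by library size only, as given below for each gene. Calls were common in these data: 68.2% of all tested genes changed with LPS (32.8% higher, 35.4% lower) and 46.9% with IFN-β (23.6% higher, 23.3% lower). Taken without sign, the log2 fold changes of the 8 genes had a median of 0.68 with LPS and 0.36 with IFN-β, beside 0.65 and 0.35 over all tested genes. Of the 8 tested genes, 75.0% and 62.5% were called, on a number too small to set against those shares.

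**Figure D1:**
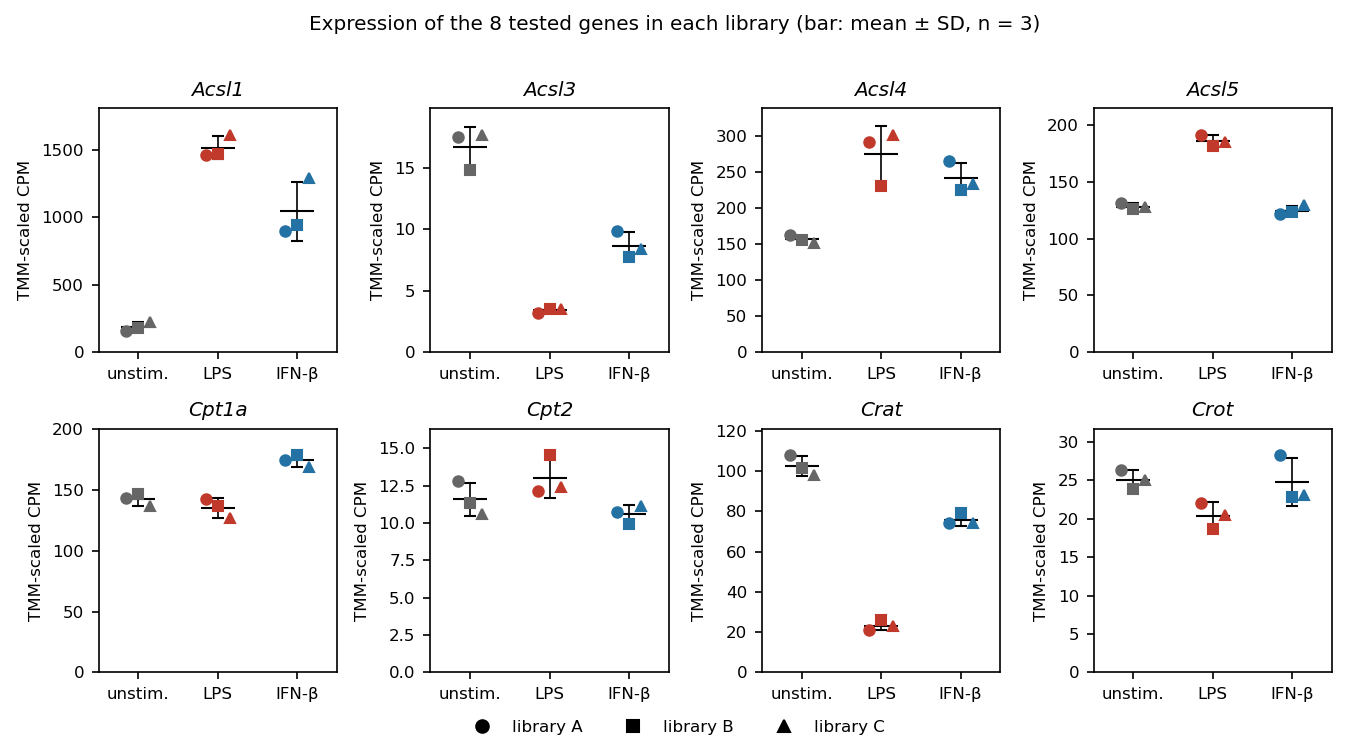
TMM-scaled CPM (vertical axis, from 0) of the 8 tested genes in unstimulated, LPS and IFN-β libraries; symbols are libraries A, B and C, and the black bar and whiskers are the mean ± SD (n = 3). *Acsl1* lies at 157 to 227 CPM unstimulated and above 900 CPM with either stimulus, while *Acsl3* and *Crat* are lowest with LPS and in between with IFN-β.

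*Acsl1* (ENSMUSG00000018796; GENCODE M21 on GRCm38, chromosome 8, 46471037 to 46536051, plus strand) encodes the synthetase that macrophages are known to raise on inflammatory activation. In unstimulated libraries A, B and C it stood at 157, 181 and 227 CPM. With LPS it stood at 1467, 1469 and 1615 CPM, and with IFN-β at 900.2, 941 and 1293 CPM. The 3 conditions did not overlap, and library C was the highest in each. *Acsl1* rose 8.05-fold with LPS (log2 fold change 3.01 ± 0.17 SE, adjusted p = 8.8e-08) and 5.55-fold with IFN-β (2.47 ± 0.17, adjusted p = 2.5e-06). In absolute size these changes stood above 94.8% and 98.1% of all tested genes. Between libraries that share a letter the rise was 2.83 to 3.22 with LPS and 2.37 to 2.52 with IFN-β on the log2 scale. The level with IFN-β was 1.45-fold below that with LPS (-0.54 ± 0.16, adjusted p = 0.0163), a difference that did not pass the threshold with scaling by library size only (-0.26, adjusted p = 0.192), without IFN-β library A (adjusted p = 0.0578) or without IFN-β library B (adjusted p = 0.0669).

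*Acsl4* (ENSMUSG00000031278; chromosome X, 142317993 to 142390535, minus strand) encodes the isoform that prefers arachidonic acid and other long polyunsaturated acyl chains. It stood at 162, 155 and 151 CPM in unstimulated libraries, at 292, 229.8 and 301 CPM with LPS and at 264, 225 and 233 CPM with IFN-β. Under TMM factors every stimulated library was above every unstimulated library, and the LPS and IFN-β ranges overlapped. With scaling by library size only, LPS library B (192.4 CPM) lay inside the unstimulated range (191.1 to 192.6 CPM). The IFN-β libraries (228.7 to 258.1 CPM) stayed above that range, and the rise with LPS still passed the threshold. *Acsl4* rose 1.76-fold with LPS (log2 fold change 0.81 ± 0.10 SE, adjusted p = 4.3e-05) and 1.54-fold with IFN-β (0.62 ± 0.10, adjusted p = 6.9e-04). The difference between the stimuli was -0.19 (interval of 1.96 SE, -0.39 to 0.01; adjusted p = 0.158). It passed the threshold with the replicate letter as a block (-0.19, adjusted p = 0.0493) and without LPS library B (-0.31, adjusted p = 0.0154), and had the opposite sign with scaling by library size only (0.09, adjusted p = 0.454).

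*Acsl5* (ENSMUSG00000024981; chromosome 19, 55251938 to 55297720, plus strand) encodes an isoform found on mitochondria and the endoplasmic reticulum. Its level was 131, 126 and 128 CPM unstimulated, 192, 181 and 185 CPM with LPS and 121, 123 and 129 CPM with IFN-β. The LPS libraries stood apart, while unstimulated and IFN-β libraries overlapped. *Acsl5* was 1.45-fold higher with LPS (log2 fold change 0.54 ± 0.06 SE, adjusted p = 9.8e-06), but with scaling by library size only the sign turned (-0.05, adjusted p = 0.474). With IFN-β the difference from unstimulated was -0.04 (interval -0.15 to 0.07, adjusted p = 0.589), and it passed the threshold with scaling by library size only (-0.35, adjusted p = 3.7e-04). Between the stimuli it was lower with IFN-β (-0.58 ± 0.06, adjusted p = 1.4e-05). Of its exon bases, 404 (8.31%) overlap exons of *Zdhhc6* on the other strand, which had 970 to 1534 counts, and the strand setting of the counting is not given in the sources used here.

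*Acsl3* (ENSMUSG00000032883; chromosome 1, 78657825 to 78707743, plus strand) encodes the isoform of the endoplasmic reticulum and of growing lipid droplets. It stood at 17.5, 14.8 and 17.7 CPM unstimulated, 3.22, 3.496 and 3.502 CPM with LPS and 9.86, 7.73 and 8.37 CPM with IFN-β. The 3 conditions did not overlap. *Acsl3* fell 4.89-fold with LPS (log2 fold change -2.29 ± 0.12 SE, adjusted p = 5.2e-08) and 1.93-fold with IFN-β (-0.95 ± 0.11, adjusted p = 6.4e-05), and the levels with the 2 stimuli differed 2.54-fold (1.34 ± 0.12, adjusted p = 7.4e-06). Its counts were low, at 91 to 785 per library, and 244 of its exon bases (5.60%) overlap exons of *Utp14b* on the same strand, which had 181 to 1538 counts.

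*Acsl6* (ENSMUSG00000020333; chromosome 11, 54303798 to 54364756, plus strand), an isoform best known from brain, had 1 count in each unstimulated library, none in the LPS libraries and 0 to 2 counts in the IFN-β libraries. All values are under the limit of 3 counts that a count of 0 allows, which was at most 0.106 CPM per library. No fold change was formed for *Acsl6*.

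Per kilobase of exon, the total of the synthetase family rose and its make-up shifted toward *Acsl1*. The summed level was 77.0 ± 2.5 CPM per kb unstimulated, 234.5 ± 14.0 with LPS and 171.8 ± 20.1 with IFN-β (mean ± SD, n = 3), and in each library *Acsl1*, *Acsl4* and *Acsl5* made up nearly all of it. *Acsl1* was 23.3% ± 3.7 of the family unstimulated, 61.7% ± 1.9 with LPS and 57.6% ± 5.2 with IFN-β. *Acsl4* went from 37.5% ± 2.3 to 21.6% ± 2.0 with LPS and 26.2% ± 4.0 with IFN-β, although its own level rose. The share of *Acsl3* was 4.97% ± 0.40 unstimulated, 0.334% ± 0.026 with LPS and 1.17% ± 0.21 with IFN-β. Shares do not depend on the scaling between libraries, but they do on the exon lengths: *Acsl1* has 10483 exon bases over all annotated transcripts and 4171 in the GENCODE basic set, with which its share was 41.3%, 79.1% and 76.2% in the 3 conditions. The rise of the total had the same direction with scaling by library size only, with sums of 94.7 CPM per kb unstimulated, 192 with LPS and 171 with IFN-β.

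**Figure D2:**
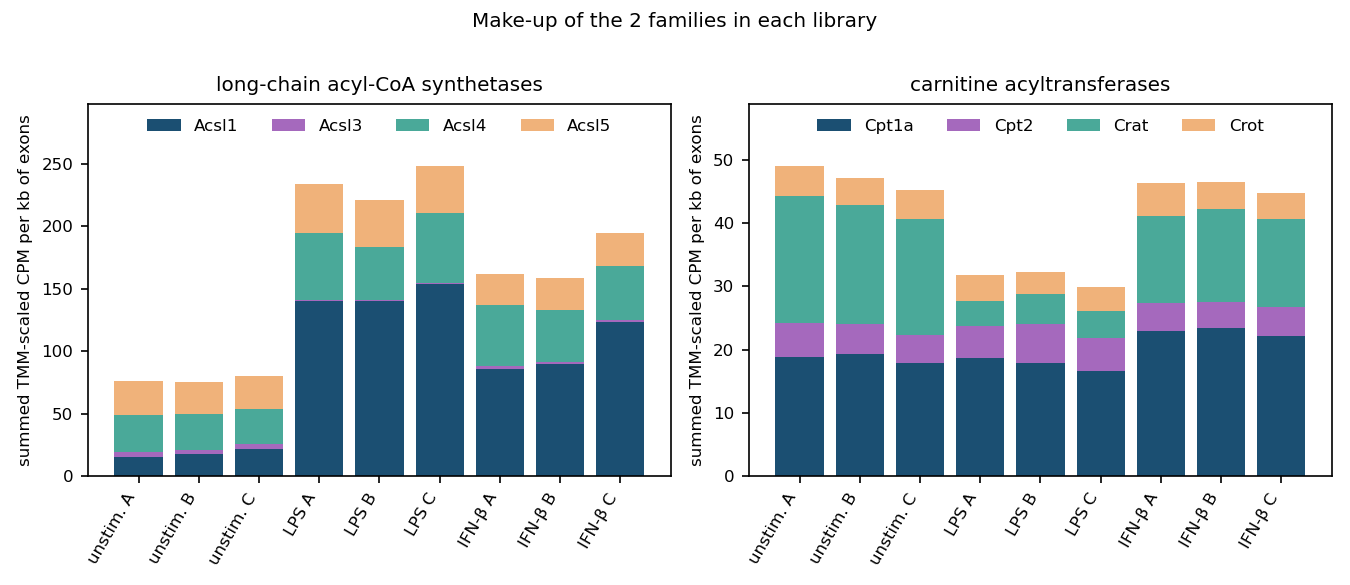
Summed TMM-scaled CPM per kilobase of exon (vertical axes) of the long-chain acyl-CoA synthetases (left) and the carnitine acyltransferases (right) in each of the 9 libraries; colours are genes, and *Acsl6*, at 0 to 2 counts, is not drawn. The synthetase total rises from 75.2 to 79.9 in unstimulated libraries to 158.5 or more with either stimulus, mostly as *Acsl1*, while the carnitine acyltransferase total is lowest with LPS, where the *Crat* layer is thinnest.

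*Cpt1a* (ENSMUSG00000024900; chromosome 19, 3322334 to 3385733, plus strand) encodes the liver-type CPT1, the step that malonyl-CoA inhibits. Its levels were 144, 147 and 137 CPM unstimulated, 143, 137 and 127 CPM with LPS and 175, 179 and 169 CPM with IFN-β. The IFN-β libraries lay above the other 6, and unstimulated and LPS libraries overlapped. *Cpt1a* was 1.22-fold higher with IFN-β (log2 fold change 0.29 ± 0.06 SE, adjusted p = 0.00379) under TMM factors, and with scaling by library size only the difference was -0.01 (adjusted p = 0.857). With LPS it was -0.07 (interval -0.20 to 0.05, adjusted p = 0.333), and past the threshold with scaling by library size only (-0.66, adjusted p = 2.3e-06) or with upper-quartile factors (-0.17, adjusted p = 0.0304). The difference between the stimuli, 0.36 ± 0.06 (adjusted p = 8.5e-04), was positive and past the threshold in every alternative tried.

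*Cpt2* (ENSMUSG00000028607; chromosome 4, 107903981 to 107923610, minus strand), the partner enzyme on the inner membrane, stood at 12.8, 11.3 and 10.6 CPM unstimulated, 12.1, 14.6 and 12.4 CPM with LPS and 10.7, 9.93 and 11.2 CPM with IFN-β. Both stimuli overlapped with the unstimulated range. The log2 fold change was 0.17 with LPS (interval -0.03 to 0.37, adjusted p = 0.157) and -0.13 with IFN-β (interval -0.33 to 0.07, adjusted p = 0.336); with scaling by library size only these were -0.41 (adjusted p = 0.00428) and -0.43 (adjusted p = 0.00462). *Cpt2* was 1.23-fold lower with IFN-β than with LPS (-0.30 ± 0.10, adjusted p = 0.0325). That call was lost with scaling by library size only (-0.03, adjusted p = 0.848), without the low-count filter (adjusted p = 0.0680), without LPS library B (adjusted p = 0.119), without IFN-β library A (adjusted p = 0.0598) and without IFN-β library B (adjusted p = 0.113).

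*Crat* (ENSMUSG00000026853; chromosome 2, 30400471 to 30415813, minus strand), the carnitine acetyltransferase, had the largest fall among the carnitine acyltransferases. It stood at 108, 102 and 98.1 CPM unstimulated, 20.98, 25.8 and 23.04 CPM with LPS and 74.0, 79.1 and 74.1 CPM with IFN-β, with no overlap between conditions. *Crat* fell 4.40-fold with LPS (log2 fold change -2.14 ± 0.08 SE, adjusted p = 8.4e-09) and 1.35-fold with IFN-β (-0.44 ± 0.08, adjusted p = 0.00103). The level with IFN-β was 3.25-fold that with LPS (1.70 ± 0.08, adjusted p = 9.0e-08). Among its exon bases, 59 overlap exons of *Dolpp1* on the other strand (324 to 1514 counts).

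*Crot* (ENSMUSG00000003623; chromosome 5, 8966033 to 8997324, minus strand), the peroxisomal carnitine octanoyltransferase, stood at 26.3, 23.8 and 25.1 CPM unstimulated, 22.1, 18.7 and 20.5 CPM with LPS and 28.3, 22.8 and 23.1 CPM with IFN-β. The LPS libraries were below all others, and the IFN-β range spanned the unstimulated range. *Crot* was 1.23-fold lower with LPS (log2 fold change -0.30 ± 0.10 SE, adjusted p = 0.0205), a call lost with DESeq2 (-0.27, adjusted p = 0.0501), without unstimulated library A (adjusted p = 0.0577) and without LPS library B (adjusted p = 0.0813). With IFN-β the difference from unstimulated was -0.02 (interval -0.21 to 0.17, adjusted p = 0.895), and -0.33 with scaling by library size only (adjusted p = 0.00945). Between the stimuli it was 0.28 ± 0.10 (adjusted p = 0.0381), a call lost with DESeq2 (adjusted p = 0.0765), without LPS library B (adjusted p = 0.145), without LPS library C (adjusted p = 0.0852) and without IFN-β library A (adjusted p = 0.154).

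Every pair of conditions whose 3 libraries did not overlap gave p = 0.1 in the exact permutation test (two-sided), the smallest p that 3 libraries against 3 allow, so that single genes rest on the fit across all genes.

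**Figure D3:**
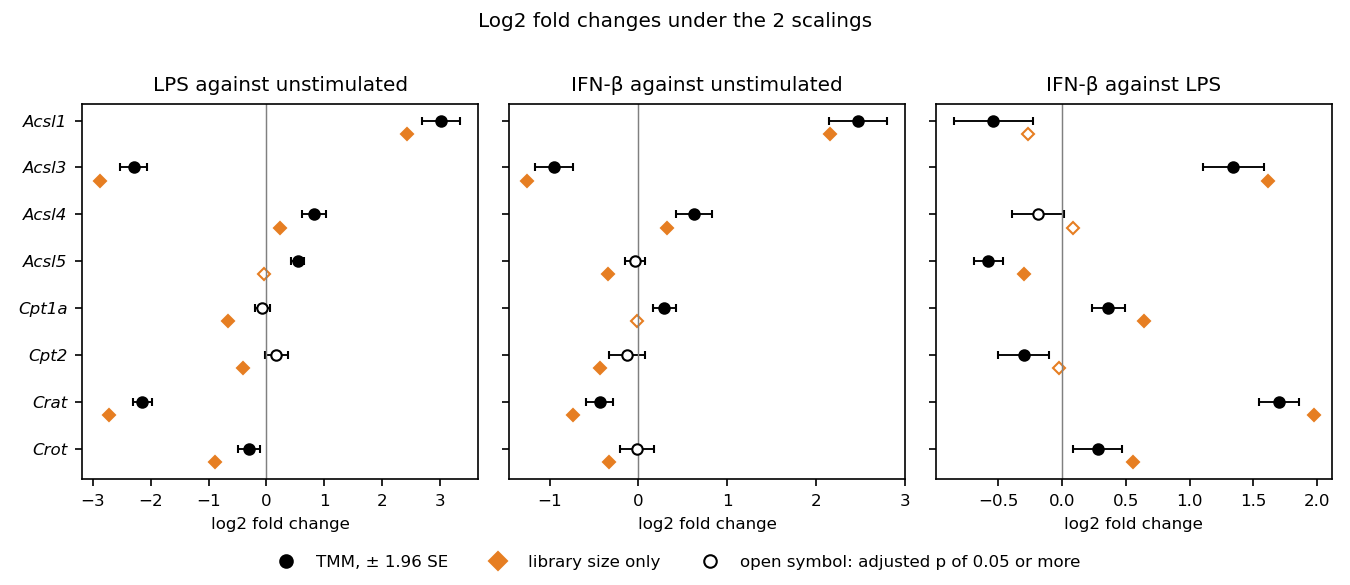
Log2 fold changes (horizontal axes) of the 8 tested genes in the 3 comparisons; black circles are the values under TMM factors with whiskers of 1.96 SE, orange diamonds those with scaling by library size only, and open symbols have an adjusted p of 0.05 or more. The 2 scalings give the same direction for *Acsl1*, *Acsl3*, *Crat* and *Crot* in all 3 comparisons. *Acsl1* between the stimuli does not pass the threshold with scaling by library size only. With LPS the signs are opposite for *Acsl5* (0.54 and -0.05) and *Cpt2* (0.17 and -0.41). They are also opposite for *Cpt1a* with IFN-β (0.29 and -0.01) and *Acsl4* between the stimuli (-0.19 and 0.09).

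The carnitine acyltransferases together summed to 47.1 ± 1.9 CPM per kb unstimulated, 31.2 ± 1.3 with LPS and 45.9 ± 0.9 with IFN-β (mean ± SD, n = 3). Unstimulated and IFN-β libraries overlapped in this sum under TMM factors (45.2 to 49.1 and 44.8 to 46.5), but not with scaling by library size only (57.0 to 58.6 and 44.04 to 47.4), where the LPS sum was again the lowest (24.8 to 26.96). *Crat* made up 40.4% ± 0.5 of the family unstimulated, 13.8% ± 1.4 with LPS and 30.7% ± 1.0 with IFN-β, and *Cpt1a* 39.6% ± 1.2, 56.7% ± 1.9 and 49.8% ± 0.6. With the exon lengths of the basic set the *Cpt1a* share was 48.02%, 64.3% and 57.9%, in the same order. The share of *Cpt2* was 10.3% ± 0.6, 17.4% ± 1.5 and 9.68% ± 0.74, and that of *Crot* 9.76% ± 0.47, 12.0% ± 1.2 and 9.89% ± 1.16.

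Ratios of counts within a library need no scaling. There were 11.3 ± 2.1 *Acsl1* counts for each *Acsl3* count in unstimulated libraries, 446 ± 22 with LPS and 123 ± 32 with IFN-β (mean ± SD, n = 3). For *Acsl1* to *Cpt1a*, activation against mitochondrial entry, the ratio was 1.33 ± 0.29, 11.2 ± 1.3 and 6.01 ± 1.41, with no overlap between conditions. *Acsl1* to *Acsl5* was 1.47 ± 0.29, 8.16 ± 0.54 and 8.35 ± 1.43, the ranges of the stimulated libraries overlapping. *Cpt1a* to *Crat* was 1.39 ± 0.06, 5.88 ± 0.82 and 2.31 ± 0.06, and *Cpt1a* to *Cpt2* was 12.4 ± 1.0, 10.5 ± 1.2 and 16.5 ± 1.4. These ratios set a gene against another gene of the same library, and show unequal change without telling which of the pair changed.

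Ordered by mean level per kilobase of exon over all annotated transcripts, unstimulated DCs had *Acsl4* (28.9 CPM per kb), *Acsl5* (26.4), *Crat* (19.0), *Cpt1a* (18.7), *Acsl1* (18.0), *Cpt2* (4.85), *Crot* (4.60), *Acsl3* (3.83) and *Acsl6* (0.00237). The library ranges overlapped between *Crat* and *Cpt1a*, *Cpt1a* and *Acsl1*, and *Cpt2* and *Crot*, and between no other neighbours. With LPS the order was *Acsl1* (144.7), *Acsl4* (50.8), *Acsl5* (38.2), *Cpt1a* (17.7), *Cpt2* (5.45), *Crat* (4.32), *Crot* (3.74), *Acsl3* (0.782) and *Acsl6* (0), with only *Crat* and *Crot* overlapping among neighbours. With IFN-β it was *Acsl1* (99.7), *Acsl4* (44.5), *Acsl5* (25.6), *Cpt1a* (22.8), *Crat* (14.1), *Crot* (4.54), *Cpt2* (4.43), *Acsl3* (1.99) and *Acsl6* (0.00265), with only *Crot* and *Cpt2* overlapping. *Acsl1* was thus in the fifth place unstimulated and in the first with either stimulus. With the basic-set lengths it led also in unstimulated libraries, at 45.2 CPM per kb before *Cpt1a* (33.03), *Acsl5* (30.2) and *Acsl4* (29.3). Other places changed too with those lengths. With LPS, *Crot* (6.82) then stood before *Cpt2* (5.50) and *Crat* (5.11). With IFN-β, *Cpt1a* (40.4) stood before *Acsl5* (29.4), and *Crot* (8.26) before *Cpt2* (4.47). The order of these genes thus depends on the lengths used.

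IFN-β against LPS, which sets the 2 responses against each other, changed 7 of the 8 genes (4 higher, 3 lower), beside 49.1% of all tested genes (25.8% higher, 23.3% lower). *Acsl3*, *Cpt1a*, *Crat* and *Crot* were higher with IFN-β, and *Acsl1*, *Acsl5* and *Cpt2* were lower. With scaling by library size only 5 were called, 4 higher and 1 lower, and without IFN-β library A 4 were called, *Acsl1*, *Cpt2* and *Crot* being lost. The median absolute difference of the 8 genes was 0.45, beside 0.38 over all tested genes.

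The genes most like each of the 8 in their pattern over the 9 libraries were found by Pearson's r of log2(CPM + 0.5), as a description; the libraries share 3 conditions, and r across them mostly follows the condition means. Nearest to *Acsl1* were *Hdac1* (r = 0.998), a histone deacetylase, and *Apobec3* (0.993), an antiviral cytidine deaminase, and 521 genes had an r of 0.95 or more. *Acsl3* was nearest to *Cracr2b* and *Cdkl2* (0.996 each), *Acsl4* to *Tmx3* (0.995) and *Tmem30a* (0.994), *Acsl5* to *Pon3* (0.997), and *Crat* to *Aatk* and *Galnt9* (0.999 each). *Cpt1a* had fewer such genes, 34, led by *Nes* (0.987), which encodes nestin, and *Ccnd1* (0.9799), which encodes cyclin D1; *Ccnd1* stood at 62.0 CPM unstimulated, 38.8 with LPS and 289.5 with IFN-β. *Crot* had 8, led by *Zyg11b* (0.985), and *Cpt2* had 2, *Otulin* (0.966) and *Wdr24* (0.954). With scaling by library size only, r fell to 0.868 for *Acsl5* and *Pon3*, 0.864 for *Cpt1a* and *Nes* and 0.780 for *Cpt1a* and *Ccnd1*. Among the 8 genes themselves, *Acsl3* and *Crat* were the most alike (r = 0.960), *Acsl1* and *Acsl4* followed (0.927), and *Acsl5* and *Crat* were the most opposed (-0.960).

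To place the 9 genes in their pathway, 8 lists of other genes of acyl-CoA metabolism were read, 110 genes of which 86 were tested. LPS changed 71 of them, 14 higher and 57 lower (82.6% called, beside 68.2% of all tested genes), with a median log2 fold change of -0.54, beside -0.04 over all tested genes. IFN-β changed 55, 9 higher and 46 lower (64.0%, beside 46.9%), with a median of -0.32, beside -0.02. Between the stimuli 48 differed (55.8%, beside 49.1% of all tested genes), 36 higher and 12 lower with IFN-β. With scaling by library size only the split was 6 higher and 73 lower with LPS, and 6 higher and 66 lower with IFN-β; of all genes called under that scaling, 21.9% were higher with LPS and 22.3% with IFN-β. Of the 14 genes called higher with LPS, 7 had the opposite sign under that scaling, and of the 9 called higher with IFN-β, 2 did. The shift of all genes under that scaling is downward for both stimuli against unstimulated, so that there it could turn only genes called higher. Between the stimuli the shift is upward. The split there was 57 higher and 3 lower with IFN-β under that scaling, beside 77.9% higher of all genes called. Of the 12 genes called lower with IFN-β than with LPS, 4 had the opposite sign under it.

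In mitochondrial β-oxidation all 18 genes were tested. LPS lowered 13 and raised 4 (94.4% called), and IFN-β lowered 14 and raised 2 (88.9%), beside 68.2% and 46.9% of all tested genes. *Hadh*, the short-chain hydroxyacyl-CoA dehydrogenase, fell from 24.8 to 6.71 CPM with LPS (log2 fold change -1.89 ± 0.14 SE, adjusted p = 7.6e-07) and to 14.1 CPM with IFN-β (-0.82 ± 0.14, adjusted p = 6.3e-04). *Acaa2*, the mitochondrial thiolase, fell from 30.1 to 12.9 CPM with LPS (-1.22 ± 0.08, adjusted p = 2.0e-07). *Acadl*, the long-chain acyl-CoA dehydrogenase, went the other way, from 55.2 to 115 CPM with LPS (1.06 ± 0.07, adjusted p = 4.1e-07) and 104 CPM with IFN-β (0.91 ± 0.07, adjusted p = 6.8e-06). The other genes raised by LPS, named after their values were seen, were *Hadha* (0.42), *Hadhb* (0.17) and *Etfa* (0.47), and with scaling by library size only their signs turned (-0.16, -0.41 and -0.11).

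In peroxisomal β-oxidation 14 of 17 genes were tested. LPS lowered 11 and raised 2 (92.9% called), and IFN-β lowered 6 and raised 2 (57.1%), beside 68.2% and 46.9% of all tested genes. *Abcd2*, a peroxisomal importer of very long acyl chains, fell from 22.0 to 5.91 CPM with LPS (log2 fold change -1.89 ± 0.16 SE, adjusted p = 1.6e-06) and to 11.4 CPM with IFN-β (-0.95 ± 0.15, adjusted p = 4.9e-04). *Pecr*, the peroxisomal trans-2-enoyl-CoA reductase, was low throughout and fell from 1.60 to 0.435 CPM with LPS (-1.86 ± 0.35, adjusted p = 6.7e-04). *Phyh*, which begins the α-oxidation of phytanic acid, rose from 14.8 to 31.1 CPM with LPS (1.06 ± 0.08, adjusted p = 5.1e-07) and to 32.4 CPM with IFN-β (1.13 ± 0.08, adjusted p = 2.5e-06).

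Of the carnitine supply, carrier and other CPT1 genes, 7 of 9 were tested, *Tmlhe* having no row under that symbol. LPS lowered 3 and raised 1 (57.1% called), and IFN-β lowered 4 (57.1%), beside 68.2% and 46.9% of all tested genes. *Aldh9a1*, an enzyme of carnitine synthesis, fell from 79.6 to 27.7 CPM with LPS (log2 fold change -1.52 ± 0.11 SE, adjusted p = 3.8e-07). *Slc22a21*, a carnitine transporter, rose from 3.06 to 6.51 CPM with LPS (1.09 ± 0.13, adjusted p = 2.1e-05) and fell to 2.08 CPM with IFN-β (-0.56 ± 0.13, adjusted p = 0.00617), in opposite directions under every scaling tried. *Cpt1c*, the neuronal CPT1, was near 1 CPM or below and fell with LPS (-1.47 ± 0.38, adjusted p = 0.00526) and IFN-β (-0.94 ± 0.35, adjusted p = 0.0463). The carnitine-acylcarnitine carrier *Slc25a20* stood at 15.6, 15.7 and 18.1 CPM in the 3 conditions and did not pass the threshold with LPS (0.01, adjusted p = 0.918) or IFN-β (0.22, adjusted p = 0.0875). With scaling by library size only it was lower with LPS (-0.57, adjusted p = 2.2e-04), and with the replicate letter as a block it was higher with IFN-β (0.22, adjusted p = 0.0237).

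Among 19 other acyl-CoA synthetases 10 were tested; LPS lowered 7 and raised 1, and IFN-β lowered 3. *Slc27a1*, a fatty acid transport protein with synthetase activity, fell from 40.8 to 10.9 CPM with LPS (log2 fold change -1.91 ± 0.10 SE, adjusted p = 6.0e-08) and stood at 39.8 CPM with IFN-β. *Aacs*, the acetoacetyl-CoA synthetase, fell from 44.1 to 15.5 CPM with LPS (-1.51 ± 0.08, adjusted p = 8.2e-08) and to 24.7 CPM with IFN-β (-0.83 ± 0.08, adjusted p = 2.2e-05). *Slc27a6* and *Acsbg1*, both near 1 CPM unstimulated, also fell with LPS (-2.90 ± 0.78 and -1.69 ± 0.29), and *Acsbg1* with IFN-β (-1.25 ± 0.27).

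Of the acyl-CoA thioesterases, which undo the work of the synthetases, 9 of 15 were tested. LPS lowered 6 and raised 1 (77.8% called), and IFN-β lowered 5 and raised 1 (66.7%), beside 68.2% and 46.9% of all tested genes. *Acot11* fell from 34.4 to 9.99 CPM with LPS (log2 fold change -1.78 ± 0.16 SE, adjusted p = 2.1e-06) and to 20.4 CPM with IFN-β (-0.75 ± 0.15, adjusted p = 0.00190). *Acot6* fell from 2.81 to 0.603 CPM with LPS (-2.22 ± 0.21, adjusted p = 4.3e-06). *Acot1* was called lower with LPS, from 0.561 to 0.0415 CPM (-3.63 ± 0.59, adjusted p = 2.6e-04), and with IFN-β, at 0.142 CPM (-1.99 ± 0.45, adjusted p = 0.00426). Its mean with LPS lies under the limit of 3 counts, which was 0.0874 to 0.106 CPM in LPS libraries. The size of that fall is thus uncertain. *Acot1* and *Acot6* belong to a cluster of related genes, and how reads that fit more than 1 of them were handled was not examined. All 3 malonyl-CoA enzymes were tested, and both stimuli lowered 2 of them (66.7%, beside the same shares of all tested genes). *Acaca*, the acetyl-CoA carboxylase whose product inhibits CPT1, fell from 102 to 55.0 CPM with LPS (-0.89 ± 0.08, adjusted p = 3.2e-06) and to 78.9 CPM with IFN-β (-0.37 ± 0.08, adjusted p = 0.00345). *Mlycd*, which degrades malonyl-CoA, fell from 10.4 to 7.43 CPM (-0.48 ± 0.11, adjusted p = 0.00263) and 7.90 CPM (-0.39 ± 0.11, adjusted p = 0.0125).

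Of the glycerolipid and sterol acyltransferases, the enzymes that use acyl-CoA to build lipid, 19 of 21 were tested. LPS lowered 11 and raised 5 (84.2% called), and IFN-β lowered 8 and raised 4 (63.2%), beside 68.2% and 46.9% of all tested genes. Among the genes raised by LPS, *Gpat4*, *Agpat1* and *Agpat2*, named after their values were seen, turned sign with scaling by library size only (-0.28, -0.15 and -0.09). *Agpat1* did so with IFN-β too (-0.08). *Dgat2*, which makes triglyceride, rose from 1.39 to 10.5 CPM with LPS (log2 fold change 2.92 ± 0.22 SE, adjusted p = 6.7e-07) and to 2.65 CPM with IFN-β (0.94 ± 0.23, adjusted p = 0.00627). *Mboat1* fell from 6.51 to 1.74 CPM with LPS (-1.92 ± 0.23, adjusted p = 2.2e-05) and to 2.78 CPM with IFN-β (-1.22 ± 0.21, adjusted p = 8.6e-04). Of the nuclear receptors and coactivators of fatty acid oxidation, 6 of 8 were tested, and both stimuli lowered 4 (66.7%, beside the same shares of all tested genes). *Ppargc1b*, a coactivator of oxidative metabolism genes, fell from 40.4 to 3.40 CPM with LPS (-3.57 ± 0.13, adjusted p = 5.6e-09) and stood at 31.9 CPM with IFN-β (-0.34 ± 0.11, adjusted p = 0.0248). *Pparg* fell from 15.3 to 2.95 CPM with LPS (-2.37 ± 0.21, adjusted p = 2.7e-06) and to 8.05 CPM with IFN-β (-0.92 ± 0.19, adjusted p = 0.00273), and *Rxra* from 101 to 44.8 CPM (-1.17 ± 0.10, adjusted p = 2.3e-06) and 65.9 CPM (-0.61 ± 0.10, adjusted p = 6.6e-04).

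**Figure D4:**
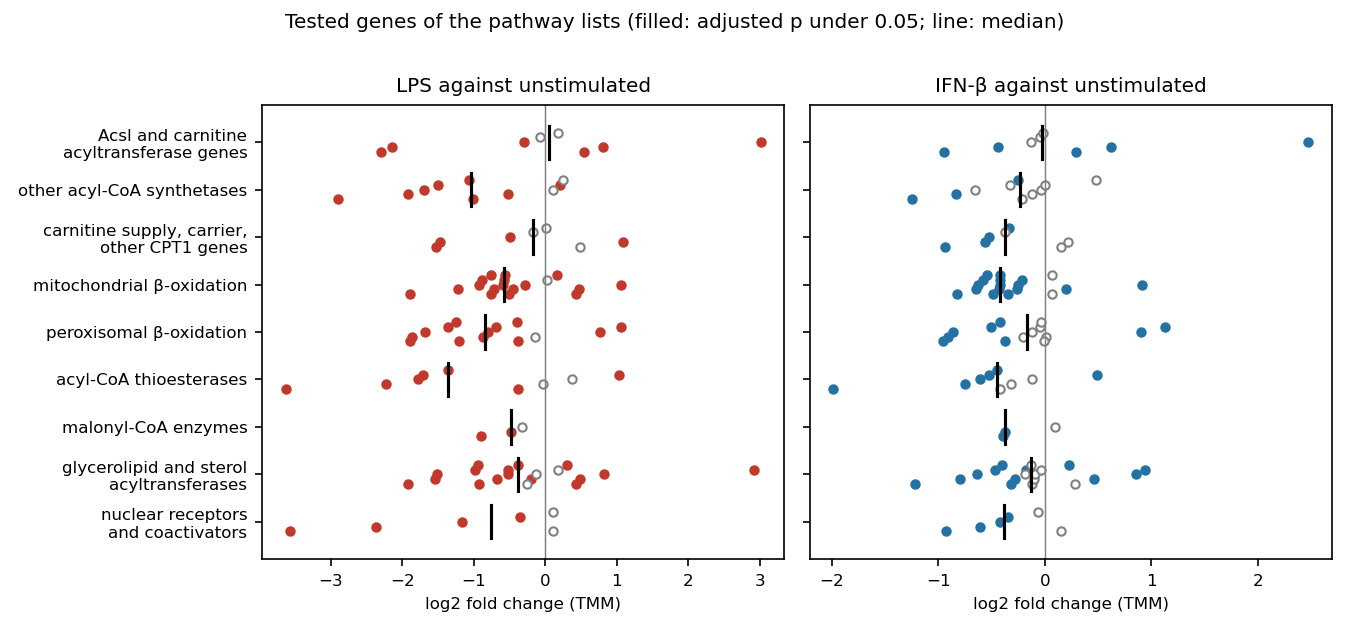
Log2 fold changes under TMM factors (horizontal axes) with LPS (left) and IFN-β (right) for the 8 tested synthetase and carnitine acyltransferase genes (top row) and the 86 tested genes of the 8 other lists; filled points have an adjusted p under 0.05 and vertical lines are medians. Medians of all 8 other lists lie below 0 in both panels, *Acsl1* is the point farthest to the right in both, and *Dgat2* is the next to it with LPS.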

How the data were processed

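The authors trimmed adapters with Trim Galore (0.6.0 in the submitters' processing notes), mapped 100-base paired reads from rRNA-depleted libraries to mm10 (GRCm38) with STAR (2.7.8a in those notes) and counted reads per gene on a GENCODE release. The deposited values are whole-number counts of reads, 1 column per library, not normalized. The strand setting of the counting is not given in the sources used here. The 9 genes and the pathway and marker lists were chosen with earlier results of these data known.

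The tests used R 4.3.3 with edgeR 4.0.16 (on limma 3.58.1): filterByExpr (16260 of 55471 genes kept), TMM factors and quasi-likelihood F-tests with 1 term per condition over all 9 libraries, adjusted by the Benjamini-Hochberg method over all tested genes. The SE is the absolute log2 fold change divided by the square root of F. The test was checked on simulated counts. Log2 values of single libraries used a pseudocount of 0.5 CPM, and intervals of 1.96 SE were formed. Exon lengths, positions and overlaps came from GENCODE M21, which matched 55144 gene IDs. Lengths over the basic transcript set were added after seeing the data.

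Libraries of the same letter deviated together from their condition means (correlation 0.134 to 0.546 over 9 pairs, beside a mean of -0.194 over 18 pairs of different letters), so the letters were taken to pair the libraries; this comes from the data, not the labels. The fit with the replicate letter as a block was an alternative, as were DESeq2 1.42.0, upper-quartile factors, library size as the sole scaling, other count filters, 2-group fits and each library left out in turn. No pair of libraries agreed within sampling noise (chi-square per degree of freedom 12.9 to 35.9).

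Named genes were the 9 genes, the 2 called genes of each list with the largest absolute log2 fold change with LPS and with IFN-β, and the 2 genes most correlated with each tested gene (symbols of predicted and RIKEN genes left out); others are said to have been chosen after their values were seen, and *Slc25a20* was among these. A few genes that the rule names are not reported here.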

Additional observations from a re-analysis of the deposited data

How the results depend on the processing

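Over 24 log2 fold changes (8 genes, 3 comparisons) and 384 alternative values, 355 kept their direction and side of the threshold, 15 fell short of it, 7 newly passed it and 7 changed sign; 12 of the 24 kept both under all alternatives. Scaling by library size only moved the most: the sign turned for *Acsl4* between the stimuli (0.0874), *Acsl5* with LPS (-0.0459), *Cpt1a* with IFN-β (-0.0147) and *Cpt2* with LPS (-0.41). *Crot* with IFN-β ranged from -0.133 to 0.0399 with single libraries left out, crossing 0. With the replicate letter as a block, *Acsl4* between the stimuli passed the threshold (-0.19, adjusted p = 0.0493). The block changed no other call of the 9 genes. Among the 86 tested pathway genes the block gave 73 (LPS), 63 (IFN-β) and 54 (between the stimuli) calls, in place of 71, 55 and 48. Of the 9 genes, 3 (LPS), 1 (IFN-β) and 2 (between the stimuli) were called when a log2 fold change of 1 or more in size was also asked for, in place of 6, 5 and 7; between the stimuli 4 were called at an adjusted p under 0.01, and 4 to 7 with single libraries left out, the lowest without IFN-β library A. Of the 86 tested pathway genes, 32, 4 and 15 were called when a log2 fold change of 1 or more in size was also asked for, in place of 71, 55 and 48. The share of all tested genes that passes both limits is not given here. These counts therefore do not tell whether the 9 genes or the pathway genes differ from genes at large. The causes were not tested. *Acsl6* was not measurable at this depth.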
